A study of Mus musculus with 4 samples.

Results

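The genes described here are the core of the MYC and MAX network, 9 genes in all. They are the MYC family genes Myc, Mycn and Mycl, the shared partner gene Max, and the antagonist genes Mxd1, Mxd3, Mxd4, Mxi1 and Mnt. Every probe set annotated to exactly 1 of these symbols was taken, which gave 22 of the 45037 probe sets that are not controls, and the 9 genes are among 18193 measured. The samples are 4 mouse liver tumors grown from LPCs (liver progenitor cells, the immature precursors of both hepatocytes and bile duct lining) that had been placed orthotopically into recipient livers. All 4 were HrasV12 driven and carried a tet-off shp53, a hairpin RNA against p53 that is made until doxycycline is given, and each sample was hybridised to 1 Affymetrix mouse expression array. In 2 samples doxycycline chow had been given for 0 days (p53 off, the control), and in the other 2 for 8 days (p53 on). The labels do not give the strain, sex or age of the mice or the number of progenitor lines, nor whether the replicates came from different mice. The p-values therefore measure only how far these arrays scatter, and that scatter may be technical. No sample had doxycycline without the hairpin, so effects of p53, of doxycycline and of time cannot be told apart.

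MYC proteins bind DNA as pairs with MAX, at sites called E-boxes, and recruit histone acetyltransferase complexes that raise transcription. The MXD proteins, MXI1 and MNT compete for MAX and for the same sites, and recruit SIN3 and histone deacetylases that lower it. In many tissues MYC is high in dividing cells and MXD genes rise as cells stop dividing and mature, and in the liver MYC is a frequent driver of tumors.

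The E-box that MYC:MAX and MXD:MAX pairs prefer reads CACGTG, the same on both strands. It was searched in RefSeq promoter windows (GRCm38.p6) of 300 bases, 250 before and 50 after a transcription start. The window table holds 8 of the 9 genes, all but Myc. The letters were found for 3 of these 8 genes, Max, Mxd4 and Mnt, against 8.09% of all 27025 genes in the table. They stood in 3 of 10 member windows, against 7.15% of 32851 windows. No other motif was searched, and a match is a description, not a site of binding. The 3 matches are shown because they are where the network's own letters lie in its own genes, with the E-box in capitals. The Max site is at chr12:76962234-76962263 on the minus strand, with its E-box beginning 3 bases before the start. The Mxd4 site is at chr5:34187912-34187941 on the minus strand, with its E-box beginning 219 bases before the start. The Mnt site is at chr11:74830789-74830818 on the plus strand, with its E-box beginning 123 bases before the start. Each start is that of the gene's window. For Max and Mnt it lies inside the gene's listed span (chr12:76937269-76962323 and chr11:74830806-74845725).
Max: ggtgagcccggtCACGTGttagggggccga
Mxd4: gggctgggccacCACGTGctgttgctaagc
Mnt: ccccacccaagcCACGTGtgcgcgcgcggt
The 250 bases before the Mxd4 start (chr5:34187711-34187960, minus strand) are given in full because Mxd4 is the antagonist that rose.
Mxd4 upstream: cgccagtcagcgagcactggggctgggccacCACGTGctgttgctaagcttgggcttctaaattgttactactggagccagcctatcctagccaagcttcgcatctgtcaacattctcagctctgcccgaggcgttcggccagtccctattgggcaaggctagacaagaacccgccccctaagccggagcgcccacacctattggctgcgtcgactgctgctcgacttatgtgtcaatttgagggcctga

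Values are log2 RMA values, and 1 unit is a factor of 2. Array medians lay between 7.29 and 7.39. A probe set or gene was called where its limma p, adjusted by Benjamini-Hochberg over all probe sets or all genes, was under 0.05. By this rule 28.7% of genes were called, 14% higher and 14.7% lower in p53 on, and 22.8% of probe sets. Dim genes were called less often: with the dimmest 40% of genes left out, 43.64% were called. The 28.7% set beside the gene lists below includes the dim genes. At an unadjusted limma p under 0.05, 3760 of the 18193 genes were higher and 3594 lower. Groups that do not overlap say little alone with 2 against 2 arrays, where a permutation test cannot give a p under 0.333. Scaling to spike-in controls moved the median change of all genes from 0.023 to 0.15, and the share of called genes that were higher from 48.8% to 70.03%; centring each array on its median gave 37.9%. The p53 gene was not analysed here, and p53 off and on are the labels' terms. The difference between 3' and 5' control probe sets for beta-actin, a sign of RNA quality, was lower on the p53 off arrays (0.395 and 0.262) than on the p53 on arrays (0.478 and 0.492).

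Several sets of cell type markers moved with the groups. Of 9 epithelial and progenitor markers 5 fell and 1 rose, and their summed level (log2 of the summed linear values) ran from 15.27 to 15.48 in p53 off and from 14.04 to 14.12 in p53 on. Of 12 macrophage markers 9 rose (14.67 to 14.84 against 15.48 to 15.72), and of 10 fibroblast and stellate cell markers 9 rose and 1 fell (15.55 to 15.75 against 16.47 to 16.49). Of 8 endothelial markers 6 rose and 1 fell (12.38 to 12.46 against 12.87 to 13.09), and all 9 proliferation markers fell (13.69 to 13.92 against 12.48 to 12.64). Of 5 dendritic cell markers 4 rose (10.41 to 10.45 against 11.62 to 11.69). For T and NK cells 2 of 8 rose (10.648 to 10.865 against 11.002 to 11.434). For neutrophils 1 of 5 rose, and their summed levels overlapped (13.075 to 13.285 against 13.151 to 13.223). These 2 shares, 25% and 20%, are below the 28.7% called of all genes. By limma 0 of 5 for B cells were called (0 at an unadjusted p under 0.05). Against the labelled liver tissue, the albumin gene Alb was dim on all arrays (7.07, 7.06, 7.39 and 6.96), and of 10 hepatocyte markers only Hnf4a was called, lower. The keratin gene Krt8, from the epithelial and progenitor markers, was bright (13.93, 14.16, 12.72 and 12.64). In bulk tissue fewer cells of a type and less RNA per cell cannot be told apart. The part of these markers in the network results was not tested.

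The activator Myc fell 2.79-fold and the antagonist Mxd4 rose 2.59-fold from p53 off to p53 on. A second antagonist, Mxi1, fell modestly, and the other members were not called on their brightest probe set. In numbers, 1 of 3 MYC family genes was called (lower), Max was not, and of 5 antagonist genes 1 was higher, 1 lower and 3 not called. The share called, 3 of 9 or 33.3%, is near the 28.7% of all genes. Mycn counts there as not called by a probe set that could hardly show a change. The median change over the 5 antagonist genes was -0.018, against 0.023 over all genes. Over probe sets, 8 of 22 were called (36.4%, against 22.8%). Of the 5 higher ones 4 belong to Mxd4, and the other is a probe set of the MYC family gene Mycn, 1417155_at (1.08).

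**Figure D1:**
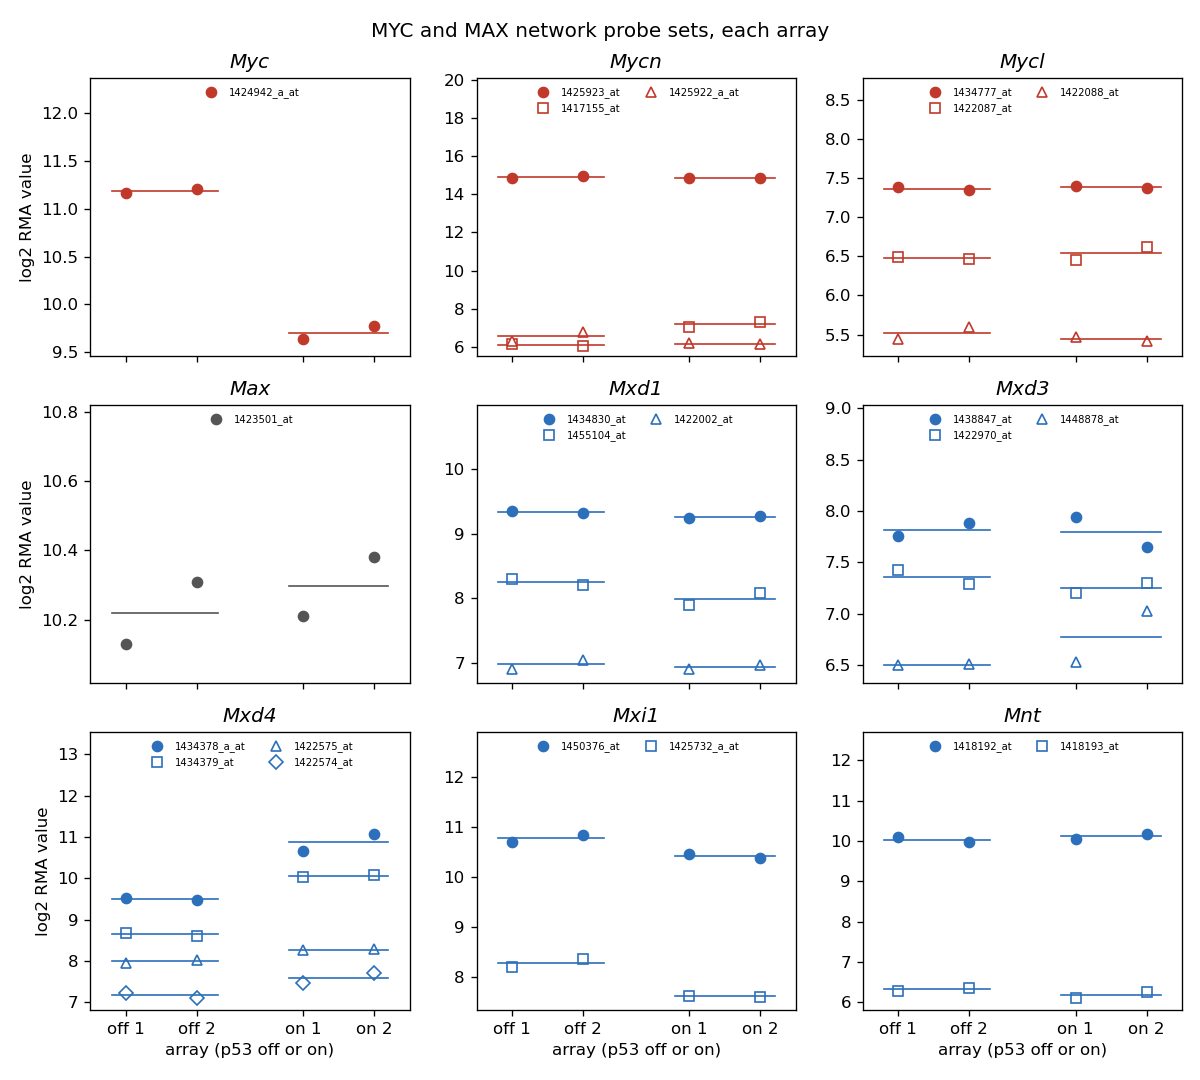
Each panel shows 1 network gene, with the log2 RMA value of each of its probe sets on the 4 arrays (points) and the mean of each group (lines); filled points are the brightest probe set, and axes differ between panels. Myc is lower on both p53 on arrays (9.64 and 9.77, against 11.16 and 11.21), the Mxd4 probe sets are higher, and the brightest Mycn probe set lies near 14.9 on every array.

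Among the activators, Myc is the family member that most growing cells use. Its single probe set read 11.16 and 11.21 with p53 off, and 9.64 and 9.77 with p53 on. Both p53 on arrays lay well below both p53 off arrays, and the gap was many times the difference within a pair. The change was -1.48 ± 0.082 (SE, n = 2 against 2), from 11.18 ± 0.031 to 9.70 ± 0.095 (mean ± SD, n = 2 each), or 2.79-fold lower (95% interval of the log2 change -1.69 to -1.27; limma adjusted p = 0.00051). In order of p, Myc stood at place 160 of 18193 genes, and in order of the size of its change at place 349. It stayed called under all 14 alternatives run, with changes from -1.55 to -1.35. The alternatives that average or swap probe sets had only 1424942_a_at to use, so their change was the same -1.48. There was no further Myc probe set of exactly 1 symbol against which to check it.

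Mycn encodes N-MYC, known from neural and embryonic tissue. Its probe sets gave 3 different answers. The brightest, 1425923_at, read 14.87 and 14.93 with p53 off, and 14.87 and 14.85 with p53 on. It was the brightest of all 45037 probe sets on each of the 4 arrays. Its change of -0.039 ± 0.073 (limma adjusted p = 0.742) is therefore a difference at the very top of the measured range. Quantile normalization gives the top-ranked probe set the same value on every array, and under that alternative it showed no change. That this probe set was not called therefore says little about the transcript. The second, 1417155_at, read 6.14 and 6.05 with p53 off, and 7.02 and 7.33 with p53 on. The groups did not overlap, and the change was 1.08 ± 0.12 (2.11-fold higher; limma adjusted p over all probe sets = 0.00312), called in all 11 alternatives that kept it. The third, 1425922_a_at, annotated to the same sequence record as the brightest, read 6.33 and 6.78 with p53 off, and 6.20 and 6.14 with p53 on. It changed by -0.38 ± 0.15 and was not called (limma adjusted p = 0.136), except without p53 off replicate 1 (-0.60, limma adjusted p = 0.0306). No single direction can be given for Mycn from these probe sets.

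Mycl encodes L-MYC, the third family member. Its brightest probe set read 7.38 and 7.34 with p53 off, and 7.40 and 7.38 with p53 on. The groups overlapped, and none of its 3 probe sets was called. The change was 0.023 ± 0.072, with a 95% interval from -0.16 to 0.20. All 3 probe sets were dim, the brightest near the array medians. Differences at such signals can be understated, so the interval does not exclude a larger change of the transcript. The probe sets 1422087_at and 1422088_at changed by 0.056 and -0.076.

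Max encodes the partner that both the MYC and the MXD proteins need to bind DNA. It read 10.13 and 10.31 with p53 off, and 10.21 and 10.38 with p53 on, and the groups overlapped. The change was 0.076 ± 0.10, with a 95% interval from -0.18 to 0.33 (limma adjusted p = 0.636). Without p53 off replicate 1 it was -0.014 and without p53 on replicate 2 it was -0.0086, so its sign rests on single arrays.

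Among the antagonists, Mxd4 (also called MAD4) was the one that rose, and all 4 of its probe sets were called higher. Its brightest probe set, 1434378_a_at, read 9.52 and 9.47 with p53 off, and 10.66 and 11.08 with p53 on. The p53 on arrays were both above the p53 off arrays but differed from each other by more than the p53 off pair did. The change was 1.37 ± 0.14 (SE, n = 2 against 2), from 9.50 ± 0.036 to 10.87 ± 0.29 (SD, n = 2 each), or 2.59-fold (95% interval 1.01 to 1.73; limma adjusted p = 0.00238). Probe set 1434379_at read 8.68 and 8.61 against 10.02 and 10.08. It rose by 1.41 ± 0.074 (limma adjusted p over all probe sets = 0.00059), and there the 2 p53 on arrays lay close together. These 2 probe sets are annotated to 1 sequence record, and were called in all 12 alternatives each. The remaining 2, annotated to another, had smaller changes. Probe set 1422574_at read 7.22 and 7.11 against 7.47 and 7.70, a change of 0.42 ± 0.10 (limma adjusted p = 0.0374). Probe set 1422575_at read 7.95 and 8.03 against 8.25 and 8.28, a change of 0.28 ± 0.074 (limma adjusted p = 0.0494). The call of 1422574_at held in 7 of 12 alternatives and was lost without p53 off replicate 1 (0.48, limma adjusted p = 0.0936), p53 off replicate 2 (0.36, 0.204) or p53 on replicate 2 (0.31, 0.092). That of 1422575_at held in 2 of 12 and was lost without any 1 array (limma adjusted p from 0.102 to 0.202). Averaged over its 4 probe sets, the gene changed by 0.87 and was still called.

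Mxi1 encodes MXI1, also known as MXD2, a SIN3-recruiting antagonist. It fell, opposite to Mxd4. Its brightest probe set read 10.70 and 10.83 with p53 off, and 10.45 and 10.37 with p53 on, a change of -0.36 ± 0.083 (1.28-fold lower; limma adjusted p = 0.0279). Probe set 1425732_a_at read 8.19 and 8.35 against 7.62 and 7.59, a change of -0.66 ± 0.085 (1.58-fold lower; limma adjusted p over all probe sets = 0.00505). The groups did not overlap in either probe set, which was also so for probe sets of Mxd1, Mxd3 and Mnt that were not called. The second was called in all 12 alternatives. The brightest was called in 5 of the same 12 in the fit over all probe sets (limma adjusted p up to 0.182). In the fit over genes, Mxi1 was called in 8 of 14 alternatives, 1 of them the mean of both probe sets (-0.51, limma adjusted p = 0.00719). There it lost its call with quantile normalization (-0.25), with spike-in scaling (-0.23), with a replicate block, and without p53 off replicate 1 (-0.42, limma adjusted p = 0.0676), p53 off replicate 2 (-0.29, 0.174) or p53 on replicate 2 (-0.32, 0.0728).

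Mxd1, the first described MXD gene, read 9.35 and 9.32 with p53 off, and 9.23 and 9.27 with p53 on. The p53 on arrays were lower by a small amount that was not called, -0.084 ± 0.072 (95% interval -0.26 to 0.096). Its probe set 1455104_at changed by -0.27 ± 0.094 and was not called (limma adjusted p = 0.102), except with each array centred on its median (-0.34, limma adjusted p = 0.0389), and 1422002_at changed by -0.042. With spike-in scaling the brightest probe set was at 0.047.

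Mxd3, an MXD gene known for its expression in dividing cells, read 7.75 and 7.88 with p53 off, and 7.94 and 7.65 with p53 on. The p53 on arrays fell on either side of the p53 off arrays, and the change was -0.018 ± 0.12 (95% interval -0.31 to 0.28). Probe set 1448878_at read 6.50 and 6.51 against 6.53 and 7.03, and the high value was that of 1 array; the change was 0.28 ± 0.17. It was not called (limma adjusted p = 0.301), except without p53 on replicate 1 (0.52, limma adjusted p = 0.0136), and without p53 on replicate 2 it was 0.025. Probe set 1422970_at changed by -0.11.

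Mnt encodes the broadly expressed antagonist, which is larger than the MXD proteins. It read 10.09 and 9.97 with p53 off, and 10.05 and 10.18 with p53 on, and the groups overlapped. The change was 0.084 ± 0.089 (95% interval -0.14 to 0.31), and that of 1418193_at was -0.14 ± 0.084 (limma adjusted p = 0.298). The mean of both probe sets was at -0.028. For Max, Mnt, Mxd1, Mxd3 and Mycl the 95% intervals of the brightest probe sets hold no change of 2-fold in either direction. The Mycl probe set was dim, so its interval does not exclude such a change of the transcript.

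**Figure D2:**
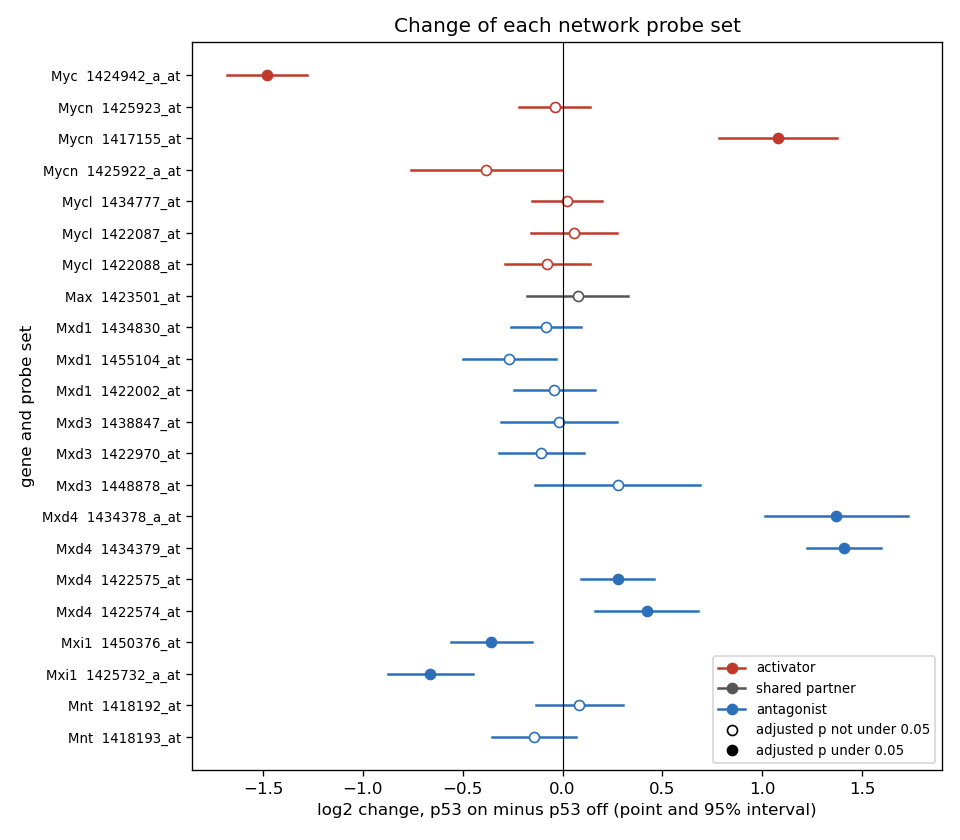
Points show the log2 change (p53 on minus p53 off) of each of the 22 network probe sets from the fit over all probe sets, and lines its 95% interval; red is the MYC family, grey Max and blue the antagonists, and filled points were called. Myc lies at -1.48, the brightest Mxd4 probe sets at 1.37 and 1.41, and both Mxi1 probe sets below 0.

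The opposite moves of Myc and Mxd4 can be set against each other within each array, where any factor common to the array cancels. Each gene was taken relative to its own p53 off mean. Myc then stood at -1.55 and -1.41 on the p53 on arrays, and Mxd4 at 1.16 and 1.58. The difference, Mxd4 less Myc, was 2.71 and 2.99, a mean of 2.85, against 0.048 and -0.048 on the p53 off arrays. This pair was chosen after its values were seen, so the figures are a description without a test, and they show unequal change, not protein balance.

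The 5 genes whose values followed those of Myc most closely were chosen by the smallest root mean square distance over the 4 arrays, after each gene was centred on its own mean. They were Dctd (0.016, a deoxycytidylate deaminase gene), Selenoi (0.030, an enzyme of phospholipid synthesis), Nop56 (0.031, a snoRNP protein gene), Bub1 (0.040, a spindle checkpoint kinase gene) and Wwc1 (0.040, the gene of the scaffold protein KIBRA). Their changes lay between -1.51 and -1.45, close to that of Myc because of how the genes were chosen.

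Beside MAX, the related protein MLX forms pairs with MXD1, MXD4, MNT and the sugar-sensing factors MondoA and ChREBP. Of 4 genes of this arm and of the MAX partner gene Mga, Mlxip, which encodes MondoA, rose by 0.71 ± 0.076 (1.64-fold; limma adjusted p = 0.00243). It read 8.95 and 9.02 with p53 off, and 9.67 and 9.73 with p53 on, with no overlap. Mlx, Mlxipl and Mga were not called (-0.042, 0.23 and -0.17), and 0 of the 4 genes fell by limma (0 at an unadjusted p under 0.05). A second Mlx probe set was called, at -0.42, and so was 1 of 5 Mga probe sets, at -0.47. Of 10 targets of MLX pairs 2 rose and 4 fell (median -0.26; 60% called, against 28.7% of all genes). Txnip, an inhibitor of glucose uptake and a known MondoA target, rose by 1.43 ± 0.079, and the arrestin gene Arrdc4, another such target, by 0.51. The fat synthesis genes Elovl6, Fasn and Acly changed by -2.17 ± 0.14, -1.19 ± 0.092 and -0.83 ± 0.077. With the mean of all probe sets Acly was at -0.49, and Arrdc4, which was named after its value was seen, has a second probe set at -0.025 and lost its call without p53 off replicate 2 (limma adjusted p = 0.0682).

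MYC recruits coactivators and chromatin partners. Of 14 measured genes of this kind 5 fell, 9 were not called and 0 rose by limma (9 and 0 at an unadjusted p under 0.05), with a median of -0.26. The share called, 35.7%, is near the 28.7% of all genes. Ruvbl1 and Ruvbl2, ATPases of the TIP60 acetyltransferase complex, changed by -0.95 ± 0.15 and -0.88 ± 0.096. The actin-related gene Actl6a changed by -0.54 ± 0.13, and the acetyltransferase gene Kat2a by -0.33 ± 0.073 (-0.14 with the mean of its probe sets). Zbtb17, which encodes the MYC partner MIZ1, was not called (-0.13). With spike-in scaling 3 genes of the list were called, where 34.7% of all genes were. Over all genes, clearly fewer were called without either p53 off array, but the number changed little without p53 on replicate 1. Fewer of the list were also called without each of p53 off replicate 1, p53 off replicate 2 and p53 on replicate 1. Kat2a lost its call without each of these arrays (limma adjusted p from 0.0662 to 0.133) and Actl6a without p53 off replicate 2 (0.148) or p53 on replicate 1 (0.0619).

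MXD proteins act through the SIN3 and HDAC corepressor. Of 14 measured genes of this complex 6 fell, 8 were not called and 0 rose by limma (8 lower and 1 higher at an unadjusted p under 0.05), with a median of -0.29. The share called was 42.9%, against 28.7% of all genes. With the dimmest 40% of genes left out it was 50%, against 43.64% of all genes kept. The chromatin reader gene Ing2 changed by -0.99 ± 0.11, the adaptor gene Sap30 by -0.57 ± 0.14, the deacetylase gene Hdac2 by -0.48 ± 0.073 and Suds3 by -0.35 ± 0.097. With the mean of its 3 probe sets Hdac2 was at -0.33, and 1 of them was not called (0.165). Fewer genes of the list were called without p53 off replicate 1, p53 off replicate 2 or p53 on replicate 1. Over all genes this was clearly so without either p53 off array, but the number changed little without p53 on replicate 1. Sap30 lost its call without either p53 off array (limma adjusted p = 0.076 and 0.161), Suds3 also without p53 on replicate 1 (0.126; 0.0701 and 0.248 without the p53 off arrays) and Hdac2 without p53 off replicate 2 (0.0639). Suds3 was at -0.11 in its other probe set, the one whose name carries no cross-hybridization mark. With spike-in scaling 2 genes of the list were lower and 1 higher, where 34.7% of all genes were called.

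Of 23 measured genes that act on the turnover of MYC protein 7 fell and 1, the phosphatase subunit gene Ppp2r5a, rose (0.34 ± 0.087; median of the list -0.20), while 15 were not called. The share called, 34.8%, is near the 28.7% of all genes. Cip2a, an inhibitor of the phosphatase that marks MYC for decay, changed by -1.60 ± 0.097, and Aurka, a mitotic kinase that shields N-MYC, by -1.56 ± 0.16. The F-box genes Skp2 and Fbxw7, whose ligases tag MYC for destruction, changed by -1.18 ± 0.13 and -0.84 ± 0.074. Aurka belongs also to the proliferation markers, all of which fell. Cip2a was at -0.94 and Aurka at -0.82 with the mean of their probe sets, and the Cip2a probe set without a cross-hybridization mark was not called (-0.27, limma adjusted p = 0.115). Without p53 off replicate 2 fewer genes of the list were called, as was so over all genes. Ppp2r5a, named after its value was seen, lost its call without any 1 array.

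Regulators of Myc transcription and of its messenger RNA split evenly, 4 higher and 4 lower of 16 measured (50% called, against 28.7% of all genes; median -0.065; 0.066 with spike-in scaling). Igf2bp3, an RNA-binding protein of fetal tissue and tumors, read 10.73 and 10.85 with p53 off, and 8.57 and 8.52 with p53 on, a change of -2.25 ± 0.080 (4.75-fold lower). Of its 6 probe sets 5 were called lower, and the brighter of the 2 without a cross-hybridization mark was not (-0.13, limma adjusted p = 0.304). The Wnt pathway factor gene Tcf7l2 changed by -0.54 ± 0.097, while Zfp36l1, whose product speeds messenger RNA decay, rose by 0.51 ± 0.085 and the receptor gene Notch1 by 0.49 ± 0.084. Pvt1, the noncoding neighbour of Myc, rose by 0.36 ± 0.082, opposite to Myc; it was named after its value was seen. Of its 5 probe sets 3 were called higher, and the gene's call was lost without p53 off replicate 1, p53 off replicate 2 or p53 on replicate 1 (limma adjusted p up to 0.166). Igf2bp1, whose product binds Myc messenger RNA, changed by -0.35 on its brightest probe set and by -2.52 on another, with all 4 called lower; the call of the brightest was lost without p53 off replicate 1, p53 off replicate 2 or p53 on replicate 2 (limma adjusted p up to 0.161). Without either p53 off array fewer genes of the list were called, as was so over all genes. Tcf7l2, Zfp36l1 and Notch1 lost their calls without p53 off replicate 2.

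**Figure D3:**
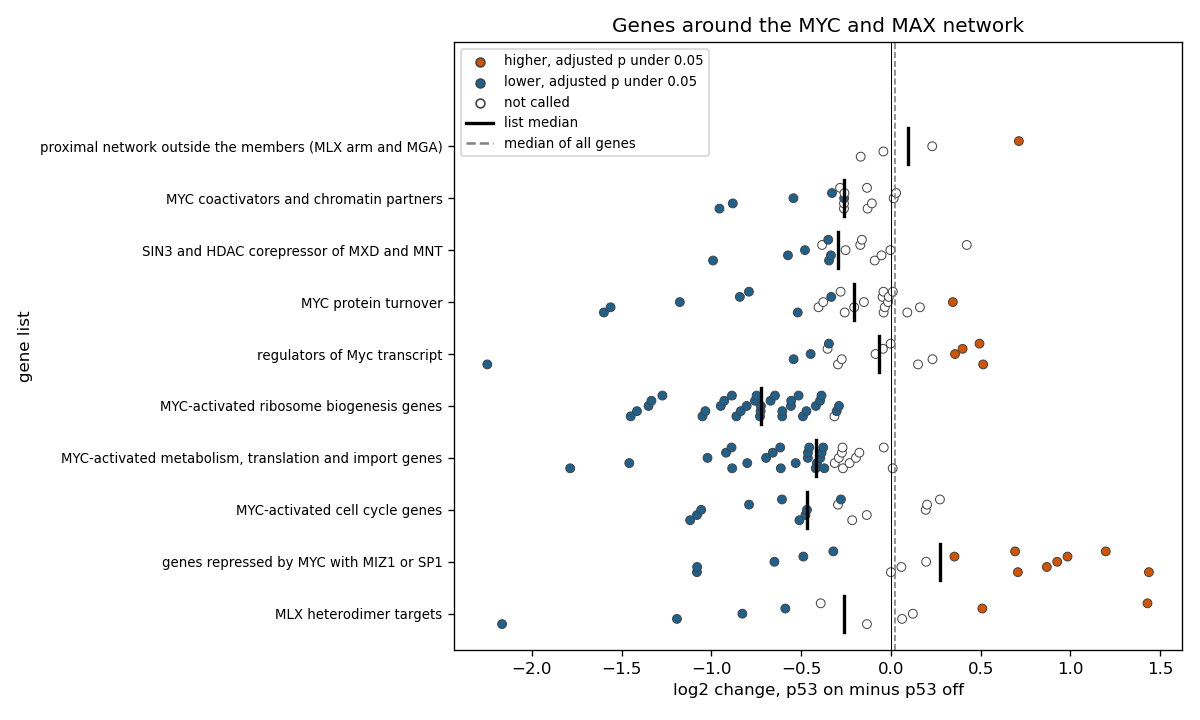
Each point is a gene of 1 of 10 lists around the network, placed by its log2 change (p53 on minus p53 off); orange and blue points were called higher and lower, white ones were not called, black bars are list medians and the dashed line is the median of all genes. Ribosome biogenesis genes lie below 0 throughout (median -0.73), whereas genes that MYC represses lie on both sides (median 0.28).

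Genes that MYC is known to activate were taken in 3 lists. Of 33 measured ribosome biogenesis genes 32 fell and 0 rose by limma (33 and 0 at an unadjusted p under 0.05), against 14.7% of all genes lower, with changes from -1.45 to -0.29 and a median of -0.73. Nop56 and Nop58, core proteins of snoRNPs, changed by -1.45 ± 0.096 and -1.41 ± 0.10, and the nucleolar gene Nolc1 and the pseudouridine synthase gene Dkc1 by -1.35 ± 0.11 and -1.33 ± 0.11. The one gene not called was Rcl1 (-0.31). Of 31 metabolism, translation and import genes 21 fell, 10 were not called and 0 rose by limma (25 and 0 at an unadjusted p under 0.05). The share called was 67.7%, against 28.7% of all genes, and the median was -0.42. The transferrin receptor gene Tfrc changed by -1.79 ± 0.073 (-0.71 with the mean of its probe sets), Tmem97 by -1.46 ± 0.15 and the mitochondrial chaperone gene Hspd1 by -0.92 ± 0.087. Fkbp4, a chaperone partner gene, changed by -1.02 ± 0.11 on its brightest probe set. Its other 2 probe sets, whose names carry no _x, _s or _a, were not called (0.15 and 0.19). Slc7a5, an amino acid transporter gene, was not called (0.010).

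Of 15 cell cycle genes activated by MYC 9 fell, 6 were not called and 0 rose by limma (11 lower and 3 higher at an unadjusted p under 0.05). The share called was 60%, against 28.7% of all genes, and the median was -0.47. With spike-in scaling 7 were lower and 3 higher, where 1892 of all 18193 genes were lower and 4421 higher. The helicase genes Mcm4 and Mcm5 changed by -1.12 ± 0.11 and -0.79 ± 0.12, the phosphatase gene Cdc25a by -1.08 ± 0.14 (-0.55 with the mean of its probe sets) and Cks1b, a CDK subunit gene, by -1.06 ± 0.12. The cyclin gene Ccnd1 was at 0.20, not called. All 9 measured proliferation markers fell as well. Without p53 off replicate 2 the ribosome, metabolism and cell cycle lists had 18, 11 and 3 called genes, and Mcm5 lost its call (limma adjusted p = 0.0624). Without p53 off replicate 1 the ribosome list had 20. Called genes overall numbered 2228 (12.25%) and 3259 (17.91%) in these fits, against 5223.

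Genes that MYC represses with MIZ1 or SP1 did not move one way. Of 16 measured genes 8 rose and 5 fell (81.2% called, against 28.7% of all genes), with a median of 0.28. Cdkn1a, the p21 gene, whose product halts the cell cycle and which is itself a p53 target, rose by 1.44 ± 0.099, and the integrin gene Itga1 by 1.20 ± 0.079 (1.93 with the mean of its probe sets). The stress genes Gadd45a and Gadd45g changed by -1.08 ± 0.17 and -1.08 ± 0.072. Gadd45a, a p53 target as well, lost its call without p53 off replicate 2, where fewer genes of the list and of all genes were called. Pdgfrb, one of the genes that rose (0.93 ± 0.091), is also one of the fibroblast markers, of which 9 of 10 rose.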

How the data were processed

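Total RNA from the 4 tumors was amplified and biotin-labelled, per the labels' protocols. For each probe set the authors deposited a log2 value from RMA, which corrects background, quantile-normalizes and summarises probes. RMA and limma 3.14.4 are named in the submitters' processing notes, and no genome build is. Low signals have no detection call, and their differences can be understated. Precision is limited by the number of arrays.

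Of 45101 probe sets 64 were controls. A platform annotation gave 34945 exactly 1 gene symbol, 932 several and 9160 none. Gene IDs of 34741 matched RefSeq (GRCm38.p6, used for names and promoter windows). The probe set of highest mean stood for each gene. Genes and, separately, all probe sets were fitted with limma 3.58.1 (R 4.3.3; lmFit, eBayes, no block; 2 residual and 5.47 moderated degrees of freedom for genes). A permutation test of 2 against 2 arrays cannot give a p under 0.333, so none was used. The fit was tested on simulated data. Figures were drawn with matplotlib 3.10.9.

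The members, the 10 gene lists and the tests were chosen with earlier results of these data known. Named were all members, up to 4 called genes of largest change per list whose groups did not overlap, and the 5 genes nearest to Myc. Any other gene was picked once its value was known. Lists share a few genes. The alternatives were a replicate block, quantile normalization, median centring, spike-in scaling (18 probe sets), leaving out the dimmest 40%, the mean of all probe sets, the brightest without a cross-hybridization mark, trend and robust eBayes, array weights and leaving out each array. With an array left out, its group's lone array is assumed to vary like the other group. A crossed block was added after seeing the data. Names with _x, _s or _a were all counted as carrying a cross-hybridization mark, though _a was not checked for matches to other genes. A gene with only marked probe sets kept its brightest.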

Additional observations from a re-analysis of the deposited data

How the results depend on the processing

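Of 601 values recomputed under the alternatives, 506 kept their direction and their side of the threshold, or stayed within 1.5 times for counts. Myc and Mxd4 stayed called under all 14, though for Myc those that average or swap probe sets had no other to use. The replicate numbers are not known to pair samples: deviations of same-numbered arrays correlated at -0.154 across genes. With the replicate block Mxi1 lost its call (-0.36, limma adjusted p = 0.0638), coactivators had 3 called genes, and 4323 of all genes were called, 4222 of them shared with the fit without it. With the crossed block 3954 genes and 6823 probe sets were called, and 2 coactivator, 5 turnover and 2 corepressor genes. Mxi1 was also not called with quantile normalization (-0.25) or spike-in scaling (-0.23), and spike-in scaling left 3 coactivator and 3 corepressor genes. The cause was not tested. Signs turned for values that were never called. With spike-in scaling these were Mycn (0.092), Mxd1 (0.047; 1422002_at 0.089), Mxd3 (0.11; 1422970_at 0.024) and Mycl probe set 1422088_at (0.055). With the mean of all probe sets they were Mycn (0.22), Mxd3 (0.050) and Mnt (-0.028). Mycl turned with quantile normalization (-0.052) and median centring (-0.052; 1422087_at -0.019). Leaving out each array gave -0.014 to 0.17 for Max, -0.16 to 0.13 for Mxd3, -0.42 to -0.29 for Mxi1, -0.11 to 0.024 for 1422002_at, -0.028 to 0.14 for 1422087_at and -0.16 to 0.0049 for 1422088_at. Called genes then ranged from 2228 to 5055, called probe sets from 4048 to 9560, coactivators from 2 to 4, corepressors from 1 to 9, turnover genes from 4 to 9, transcript regulators from 1 to 7, ribosome genes from 18 to 31, metabolism genes from 11 to 24, cell cycle genes from 3 to 8 and repressed genes from 7 to 13. Leaving out a p53 off array leaves the spread to the p53 on pair. Dim probe sets, such as those of Mycl, limit what a small change can show.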
